A study of Mus musculus with 6 samples.

Results

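Scx, Mkx and Tnmd are the 3 genes by which tendon cells are most often recognised, and they were followed here across 3 limb tissues of the mouse. They were taken by their symbols in the authors' tables, all 3 were listed in every count table and every abundance table, and they are 3 of 20672 genes listed in at least 1 count table. All 3 passed the filter on low counts and were among the 15856 genes tested between tissues. Scx encodes scleraxis, a basic helix-loop-helix transcription factor present from the tendon progenitor onward. Mkx encodes Mohawk, a homeodomain transcription factor needed for the growth of collagen fibrils in tendon. Tnmd encodes tenomodulin, a membrane glycoprotein of maturing tendon and ligament cells whose gene depends on Scx in the mouse. In tendon these genes belong to a programme that builds bundles of type I collagen.

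The libraries were bulk RNA-seq, 2 each from Achilles tendon, from the fat pad of the knee (infrapatellar, the cushion of fat under the kneecap) and from the rectus femoris, a thigh muscle. The series concerns female mice and letrozole, a drug that blocks aromatase. Both fat pad titles, and no other title, name the drug, and no label sets a treated library against a control within a tissue. If the fat pad libraries were treated, drug and tissue cannot be told apart in any comparison with them. The titles also carry a code that both libraries of a tissue share and that differs between tissues. Its meaning is not given, and whatever it stands for cannot be told apart from tissue in any comparison, tendon over muscle included. The tissue field names the fat pad for all 6 libraries, so the tissues were taken from the field that names 3 of them. Neither strain nor age is given, the titles of the tendon and fat pad libraries carry the word combined, and whether animals were pooled is not stated. Separate animals behind the paired libraries are not stated either, so p-values speak only of the spread among these 6 libraries, possibly technical.

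The tendon libraries held 59042675 and 62063826 counts, those of the fat pad 83132413 and 106319037 and those of muscle 56216295 and 58544836. The tissue names were checked against marker genes, with levels in TMM CPM, counts scaled for library size and then by the trimmed mean of M-values. The summed level of 10 skeletal muscle markers was 32019 and 63885 TMM CPM in tendon, 175 and 168 in the fat pad and 255120 and 231058 in muscle. The summed level of 7 adipocyte markers was 3367 and 727 TMM CPM in tendon, 72852 and 79962 in the fat pad and 445 and 1036 in muscle. Cfd held most of that sum in the fat pad (51767 and 58583 TMM CPM). Of the 7, 5 were called lower in tendon than in the fat pad (edgeR, adjusted p under 0.05) and 0 higher. Of all genes tested 27.2% were called lower and 31.4% higher. Plin1 and Lep were not called, with a log2 fold change of -1.26 and 1.19. Plin1 had 306.3 and 21.4 TMM CPM in tendon and 353.4 and 429.8 in the fat pad. Lep in tendon library 1 was above both fat pad libraries, and in library 2 below both. No marker of either list was at 0 in any library. All 10 muscle markers were called higher in tendon than in the fat pad (edgeR, adjusted p under 0.05), beside 31.4% of all genes tested. Over muscle 2 were called higher and 4 lower, beside 13.3% and 12.7% of all genes. Myh4, the fast myosin with the highest level in muscle, had 596 and 19284 TMM CPM in tendon, 13.2 and 8.15 in the fat pad and 96411 and 96345 in muscle. The slow-fibre genes Myh7 and Tnnc1 were the pair called higher in tendon than in muscle, Myh7 with 4983 and 2547 TMM CPM in tendon, 0.199 and 0.249 in the fat pad and 1.79 and 6.12 in muscle. The 6 synovial lining markers summed to 1401 and 829.5 TMM CPM in tendon, 16246 and 18436 in the fat pad and 488 and 516 in muscle. Cartilage markers summed to 15.5 and 38.6 TMM CPM in tendon, 7.59 and 5.96 in the fat pad and 4.14 and 2.38 in muscle, where 1 of them was at 0 in library 2. Blood, immune and vessel markers summed to 779.7 and 579 TMM CPM in tendon, 30024 and 10182 in the fat pad and 611 and 649 in muscle. Haemoglobin held most of that sum in the fat pad (Hba-a1, 17590.0 and 5730 TMM CPM). The vessel genes Cdh5, Kdr and Pecam1 were called higher in tendon than in the fat pad (edgeR), Cdh5 with 165 and 176 TMM CPM in tendon, 11.0 and 10.2 in the fat pad and 100.1 and 124 in muscle. The part of these other cells in the results below was not tested.

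Scx (ENSMUSG00000034161) lies on chromosome 15 and Tnmd (ENSMUSG00000031250) on the X chromosome. In the GENCODE M21 annotation Scx lies inside Bop1, a ribosome assembly gene on the opposite strand, and shares 0 exonic bases with it. RefSeq's promoter table (GRCm38.p6) matched 1 of the 3 members, Tnmd. Its 250 bases before the start, chrX:133850758-133851007 on the plus strand, are shown because Tnmd followed Scx across the tissues and Scx is known to bind the E-box CANNTG. Capitals mark the only TATATA of the stretch, next to the start.

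Tnmd promoter: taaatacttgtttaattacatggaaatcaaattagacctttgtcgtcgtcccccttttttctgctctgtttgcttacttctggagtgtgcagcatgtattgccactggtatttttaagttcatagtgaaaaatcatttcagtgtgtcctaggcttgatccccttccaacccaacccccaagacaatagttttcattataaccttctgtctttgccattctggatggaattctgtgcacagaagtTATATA

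The stretch holds 0 copies of CANNTG, a motif that reads the same on both strands, and 0 of TATAAA on either strand. CANNTG was present in 66.2% of the 32851 promoters of the same length in the table, and in 9 of 12 promoters of the tendon matrix genes described below. TATATA was present in 5.25% and TATAAA in 12.4% of all promoters. A match or its absence describes these letters only.

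Scx, the earliest of the 3 in tendon development, was highest in tendon and lowest in the fat pad. Its level was 32.9 and 68.7 TMM CPM in the tendon libraries (2556 and 4998 counts), 0.929 and 2.17 in the fat pad (84 and 244 counts) and 8.67 and 6.28 in muscle (354 and 285 counts). The means were 50.8 ± 25.3, 1.55 ± 0.877 and 7.47 ± 1.70 TMM CPM in tendon, fat pad and muscle (SD, n = 2 each). Both tendon libraries lay above both muscle libraries, and these above both fat pad libraries, with no overlap.

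Mkx (ENSMUSG00000061013, chromosome 18), the homeodomain factor, had the fewest counts of the 3 and the largest fold differences between tissues. It shares 201 of its 4095 exonic bases, or 4.91%, with AC148004.2, a transcript on the same strand that is in no count table. Its level was 28.3 and 47.8 TMM CPM in tendon (2193 and 3475 counts), 0.476 and 0.365 in the fat pad (43 and 41 counts) and 3.97 and 2.75 in muscle (162 and 125 counts). The means were 38.0 ± 13.8, 0.420 ± 0.0785 and 3.36 ± 0.861 TMM CPM (SD, n = 2 each, in the same order). The tissues stood in the order found for Scx and did not overlap.

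Tnmd, the membrane protein of mature tendon cells, was the most abundant. Its level was 229.5 and 346.9 TMM CPM in tendon (17818 and 25238 counts), 10.2 and 10.5 in the fat pad (925 and 1183 counts) and 59.9 and 23.5 in muscle (2446 and 1065 counts). The means were 288 ± 83.0, 10.4 ± 0.203 and 41.7 ± 25.8 TMM CPM (SD, n = 2 each). The fat pad libraries were close to each other and the muscle libraries far apart, yet the 3 tissues did not overlap. The order of tendon above muscle above fat pad with no overlap, which all 3 members showed, was met by 10.2% of the 15856 genes tested. In bulk tissue fewer cells of a type and less RNA per cell cannot be told apart.

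**Figure D1:**
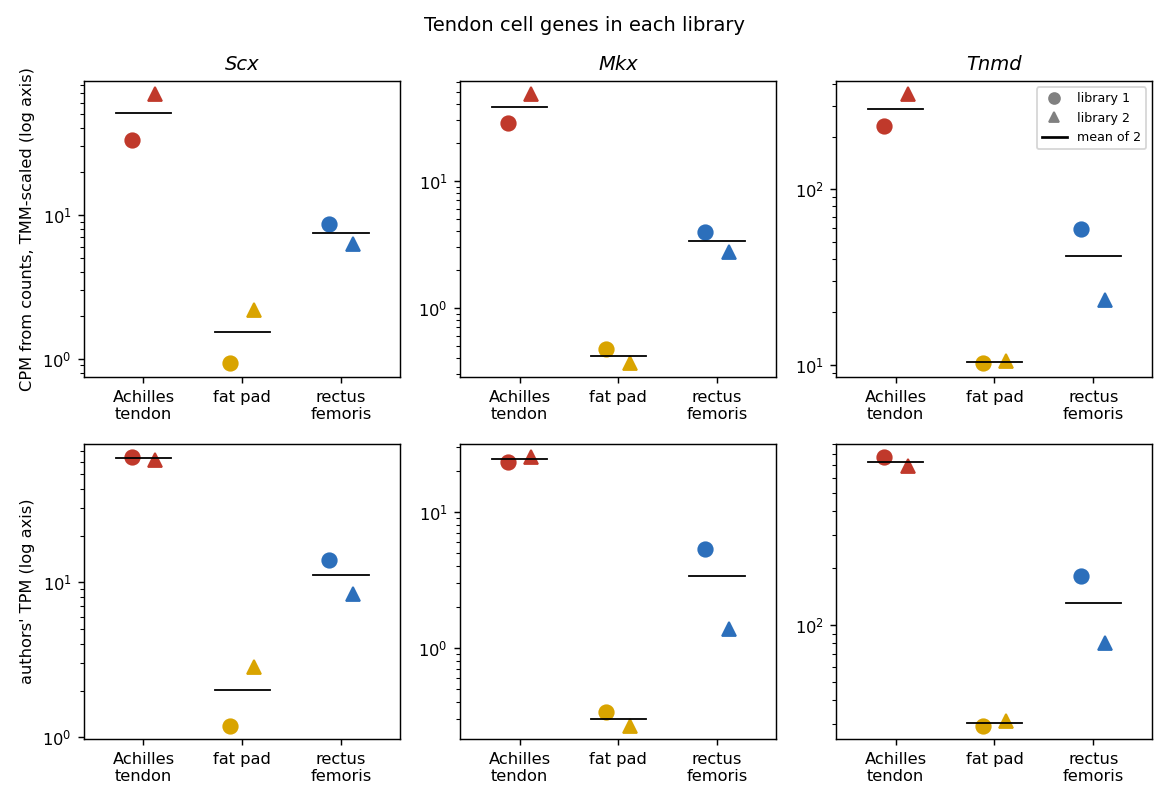
Level of Scx, Mkx and Tnmd in each library, as TMM CPM from counts (upper row) and as the authors' TPM (lower row), on log axes, with circles for library 1, triangles for library 2 and lines for the mean of 2. In every panel the tendon libraries are highest, the fat pad libraries lowest and no tissues overlap.

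The same order held in the authors' TPM, abundances scaled for transcript length. Scx stood at 64.4 and 61.8 TPM in tendon, 1.18 and 2.86 in the fat pad and 13.9 and 8.41 in muscle. Mkx stood at 23.3 and 25.2 TPM in tendon, 0.336 and 0.266 in the fat pad and 5.30 and 1.38 in muscle. Tnmd stood at 773 and 689 TPM in tendon, 29.3 and 31.1 in the fat pad and 182 and 80.4 in muscle. The tendon libraries were close to each other in TPM for all 3 members, where their TMM CPM differed.

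Tendon exceeded the fat pad in all 3 members, with 90.4-fold more Mkx, 32.6-fold more Scx and 27.8-fold more Tnmd. The log2 fold change of tendon over fat pad was 6.50 ± 0.42 for Mkx, 5.03 ± 0.56 for Scx and 4.80 ± 0.50 for Tnmd (± SE). The adjusted p was 7.55e-05 for Mkx, 0.000366 for Scx and 0.000283 for Tnmd (edgeR's quasi-likelihood F-test, Benjamini-Hochberg adjustment over 15856 genes, threshold 0.05). By that rule 31.4% of all genes tested were called higher in tendon and 27.2% lower, so the call itself is common. By size the folds ranked 261 for Mkx, 489 for Scx and 538 for Tnmd from the highest of 15856. Scx moved most when 1 library was left out, to 5.78 without fat pad library 2 and to 4.41 without tendon library 2.

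Tendon also exceeded muscle, by smaller folds. These were 11.3-fold for Mkx, 6.80-fold for Scx and 6.91-fold for Tnmd. The log2 fold change of tendon over muscle was 3.50 ± 0.36 for Mkx, 2.77 ± 0.51 for Scx and 2.79 ± 0.46 for Tnmd, with an adjusted p of 0.00470, 0.0140 and 0.0111 in that order (edgeR's quasi-likelihood F-test, Benjamini-Hochberg adjustment). All 3 were called, beside 13.3% of genes called higher and 12.7% lower in tendon, and 3 of 3 were called higher in tendon than in both other tissues, beside 6.29% of genes. With muscle library 1 left out the log2 fold change was 3.02 for Scx (adjusted p = 0.0912), 3.79 for Mkx (0.0579) and 3.63 for Tnmd (0.0454), and with muscle library 2 left out 2.56 (0.0856), 3.27 (0.0578) and 2.27 (0.0578), by the same edgeR test. Without tendon library 2 Scx stood at 2.14, and scaling by total counts gave 3.47 for Scx, 4.21 for Mkx and 3.52 for Tnmd.

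The fat pad lay below muscle in all 3 members, 4.80-fold for Scx, 7.99-fold for Mkx and 4.02-fold for Tnmd. The log2 fold change of fat pad over muscle was -2.26 ± 0.51 for Scx, -3.00 ± 0.37 for Mkx and -2.01 ± 0.45 for Tnmd, with an adjusted p of 0.00761, 0.000536 and 0.00740 in that order (edgeR's quasi-likelihood F-test, Benjamini-Hochberg adjustment). All 3 were called lower, beside 29.6% of genes called lower and 29.8% higher. The full order of tendon above muscle above fat pad was called in all 3 comparisons for 3 of 3 members, beside 2.43% of genes. The 3 comparisons share libraries, so they are not independent of each other. The Tnmd value was -1.95 without fat pad library 1 (adjusted p = 0.0534), -2.03 without fat pad library 2 (0.0508) and -1.18 without muscle library 1 (0.0306), and the Scx value was -3.01 without fat pad library 2, by the same edgeR test.

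**Figure D2:**
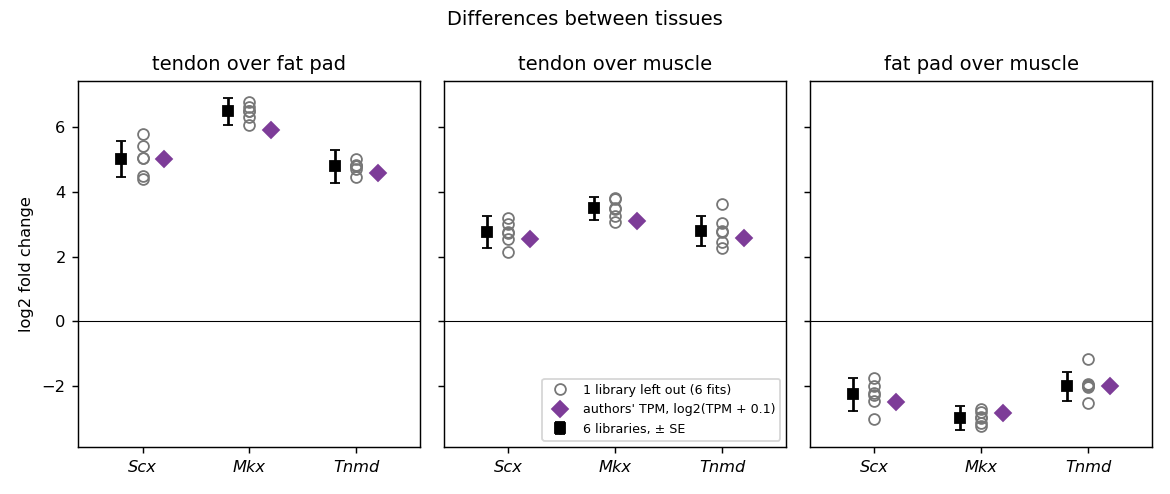
Log2 fold change of each member between tissues, with squares for the fit of 6 libraries (± SE), open circles for the fits with 1 library left out and diamonds for log2(TPM + 0.1). The values stay above 0 for tendon over fat pad and for tendon over muscle and below 0 for fat pad over muscle, and Mkx has the fitted values farthest from 0, at 6.50, 3.50 and -3.00.

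Bop1 holds Scx on its other strand, and the strand setting of the counting is not given in the sources used here. Bop1 had 2081 and 2620 counts in tendon, 1700 and 3041 in the fat pad and 1704 and 1849 in muscle. Its log2 fold change was 0.45 in tendon over fat pad (adjusted p = 0.147), -0.39 in tendon over muscle (0.263) and -0.85 in fat pad over muscle (0.0212) by edgeR's quasi-likelihood F-test with Benjamini-Hochberg adjustment. Bop1 was thus called in the direction of Scx in fat pad over muscle and in neither comparison with tendon. The part of Bop1 reads in the Scx counts was not tested.

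Levels of different genes were compared per length, as TPM computed from the counts with exonic lengths of GENCODE M21. On that scale tendon averaged 948 ± 160 for Tnmd, 111 ± 43.1 for Scx and 41.1 ± 10.1 for Mkx (SD, n = 2). The fat pad averaged 18.2 ± 0.578, 1.84 ± 1.06 and 0.243 ± 0.0425 in the same order, and muscle 70.0 ± 37.7, 8.63 ± 1.13 and 1.90 ± 0.306. Tnmd was above Scx and Scx above Mkx in each of the 6 libraries, both on this scale and in the authors' TPM. Per length, Scx stood 2.38 and 2.93 times as high as Mkx in tendon, 3.99 and 12.1 times in the fat pad and 4.46 and 4.65 times in muscle. Both tendon libraries had the smaller excess of Scx over Mkx on this scale. In the authors' TPM the ratio was 2.76 and 2.45 in tendon, 3.52 and 10.7 in the fat pad and 2.61 and 6.09 in muscle, so tendon and muscle overlapped there.

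Within a tissue the members did not keep 1 ratio between library 2 and library 1. In tendon all 3 were higher in library 2, with a log2 ratio of TMM CPM of 1.06 for Scx, 0.76 for Mkx and 0.60 for Tnmd, while Col1a1, the main collagen chain of tendon, stood at -0.63. The 95% counting intervals were 0.99 to 1.13, 0.68 to 0.84 and 0.57 to 0.62 for the members in that order. In tendon library 2 the summed skeletal muscle markers were also higher and the summed adipocyte markers lower, by the sums given above. Within the muscle list Myh7, Myh2 and Tnnc1 were lower in library 2, with 2547, 3145 and 310.2 TMM CPM there and 4983, 6177 and 594 in library 1, while the other 7 were higher. The part of these genes in the members' ratios was not tested.

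In muscle all 3 members were lower in library 2, with a log2 ratio of -0.47 for Scx (-0.70 to -0.24), -0.53 for Mkx (-0.88 to -0.18) and -1.35 for Tnmd (-1.46 to -1.25), beside -0.47 for Col1a1. In the fat pad the ratio was 1.22 for Scx (0.86 to 1.60), -0.38 for Mkx (-1.04 to 0.27) and 0.04 for Tnmd (-0.09 to 0.17), beside -0.74 for Col1a1. Scx was thus the member that differed between the fat pad libraries beyond counting error, whereas the intervals of Mkx and Tnmd held 0. Bop1, which holds Scx on its other strand, had a ratio of 0.52 (0.44 to 0.61) in the fat pad. Its ratio was 0.43 (0.34 to 0.51) in tendon and -0.04 (-0.13 to 0.06) in muscle. The part of Bop1 reads in the Scx ratios was not tested. All these intervals cover counting error only, and 1 library on each side gives no test.

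The authors' TPM gave other ratios where the tissue was tendon or muscle. The log2 ratio of TPM, library 2 over library 1, was -0.06 for Scx, 0.11 for Mkx, -0.17 for Tnmd and 1.07 for Col1a1 in tendon. It was 1.27 for Scx, -0.33 for Mkx and 0.09 for Tnmd in the fat pad, and -0.72, -1.94 and -1.18 in muscle. Across 14829 genes the log2 ratios from counts and from TPM correlated at r = 0.97 in the fat pad, -0.18 in tendon and -0.13 in muscle, so the 2 kinds of deposited values did not follow each other within tendon or muscle. In the authors' deposited table the log2 fold change of library 1 over library 2 was 0.30, 0.13 and 0.41 in tendon, -1.23, 0.37 and -0.05 in the fat pad and 0.49, 1.71 and 0.95 in muscle for Scx, Mkx and Tnmd in that order, none with an adjusted p under 0.05.

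**Figure D3:**
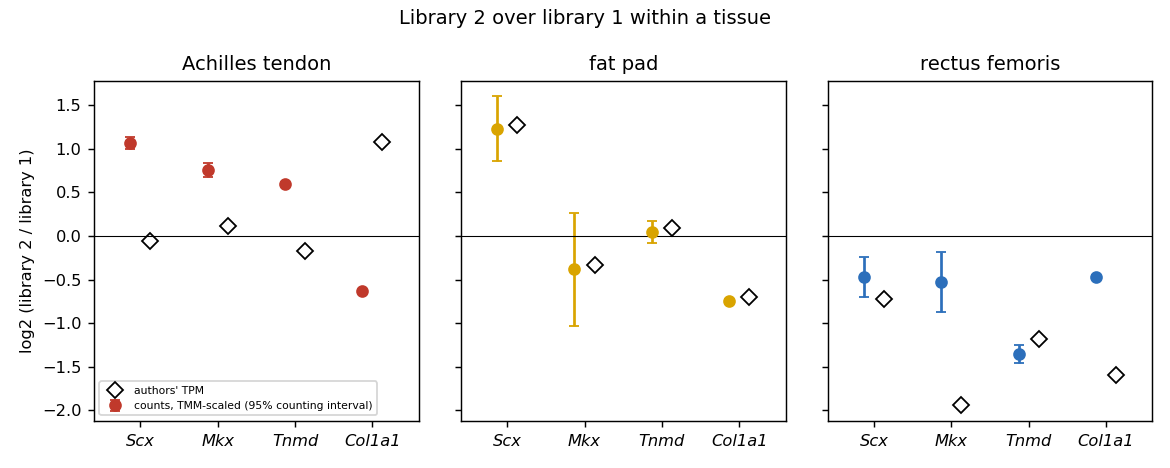
Log2 ratio of library 2 over library 1 in each tissue, with filled circles for TMM-scaled counts (bars, 95% counting interval) and diamonds for the authors' TPM. In tendon the circles of Scx, Mkx and Tnmd lie above 0 and that of Col1a1 below, whereas the diamonds stand at -0.06, 0.11, -0.17 and 1.07.

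Ratios of counts within a library do not depend on how libraries are scaled. For each 1000 Col1a1 counts there were 3.41 and 11.0 Scx counts in tendon, 1.98 and 7.73 in the fat pad and 8.70 and 8.71 in muscle. The tissues overlapped on this ratio, although Scx itself did not overlap. For each 1000 Col1a1 counts there were 2.93 and 7.68 Mkx counts in tendon, 1.01 and 1.30 in the fat pad and 3.98 and 3.82 in muscle. Here the fat pad lay below both other tissues, and tendon and muscle overlapped. Tnmd had 23.8 and 55.8 counts for each 1000 Col1a1 counts in tendon, 21.8 and 37.5 in the fat pad and 60.1 and 32.5 in muscle. Relative to Col1a1, the members therefore did not set tendon apart from muscle in these libraries. With 2 libraries against 2 the smallest 2-sided p of an exact permutation test is 0.333, so that test could not call such a ratio at 0.05, and the ratios were not tested in a model.

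The members were also set against each other. For each 1000 Scx counts there were 858 and 695 Mkx counts in tendon (95% counting intervals 810.0 to 909 and 666 to 726), 512 and 168 in the fat pad (346 to 748 and 118 to 235) and 458 and 439 in muscle (378 to 553 and 353 to 543). Fat pad library 1 and tendon library 2 had intervals that overlapped. By counts both tendon libraries lay above all 4 others, which did not hold in the authors' TPM, as given above. Mkx was also highest relative to Tnmd in tendon by counts, with 123 and 138 counts for each 1000 Tnmd counts, against 46.5 and 34.7 in the fat pad and 66.2 and 117 in muscle. The counting interval of muscle library 2 (96.7 to 141) overlapped those of both tendon libraries (118 to 129 and 133 to 143). For each 1000 Tnmd counts there were 143 and 198 Scx counts in tendon, 90.8 and 206 in the fat pad and 145 and 268 in muscle, which overlapped.

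**Figure D4:**
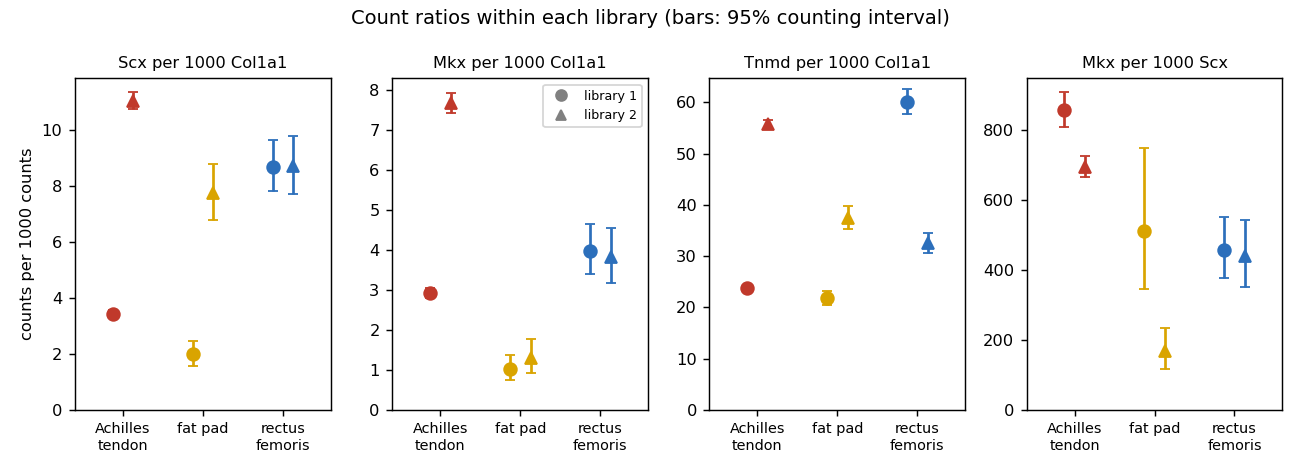
Counts of each member for each 1000 Col1a1 counts, and of Mkx for each 1000 Scx counts, in each library (bars, 95% counting interval). The tissues overlap for Scx and Tnmd per Col1a1, the fat pad is lowest for Mkx per Col1a1, and by these counts both tendon libraries are highest for Mkx per Scx, at 858 and 695.

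Other regulators of tendon formation were in part higher in tendon as well. Of 19 genes in this list, 10 were called higher in tendon than in the fat pad and 1 lower, beside 31.4% and 27.2% of all genes tested, with a median log2 fold change of 1.46 beside 0.01 over all genes tested. They included Tgfb3, a ligand of the TGF-beta pathway that induces Scx (2.59 ± 0.24), its signal transducer Smad3 (2.66 ± 0.22), Klf4, a zinc finger factor (3.18 ± 0.25), and the homeobox gene Six2 (4.95 ± 0.90). The 1 lower gene was Osr2, a zinc finger factor of connective tissue (-3.41 ± 0.34). Egr1, a zinc finger factor that induces tendon collagen genes, had -0.19 ± 0.34 and was not called.

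Against muscle 7 of the 19 were called higher in tendon and 3 lower, beside 13.3% and 12.7% of all genes, with a median of 0.78 beside 0.10 over all genes. Higher were Tgfb3 (1.73 ± 0.23), Klf4 (1.42 ± 0.23) and Sox9, a factor shared by tendon and cartilage progenitors (2.23 ± 0.50). Gdf5, a growth factor of joints and tendon, had 265 and 130 counts in tendon, 87 and 144 in the fat pad and 0 in both muscle libraries. It was at least 37.3-fold higher in tendon than in muscle, against a floor of 3 counts per library. The lower genes included Eya1, a transcriptional co-activator also known from muscle (-1.58 ± 0.22), and Smad3 (-1.01 ± 0.21), and the sign of Smad3 turned on the log2(TPM + 1) scale, to 0.01. Scaling by total counts gave 12 higher and 1 lower, beside 5969 higher and 398 lower of 15856 genes. With either muscle library left out, the calls of the list over muscle were lost, as were most calls over all genes.

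The tendon matrix, built of fibrillar collagens and the small proteins that bind them, was mostly higher in tendon. Of 18 genes, 14 were called higher in tendon than in the fat pad and 1 lower, beside the same 31.4% and 27.2% of all genes, with a median of 4.44. Fmod, fibromodulin, which binds collagen fibrils, had 4246 and 7326 TMM CPM in tendon, 40.9 and 14.9 in the fat pad and 561 and 387 in muscle. Its log2 fold change was 7.70 ± 0.73 over the fat pad and 3.61 ± 0.60 over muscle. Thbs4, a thrombospondin of tendon and its muscle attachment, had 7.15 ± 0.46 and 3.29 ± 0.38, and Col1a1 had 4.40 ± 0.49 and 3.21 ± 0.46. The 1 lower gene was Lum, lumican, another collagen-binding proteoglycan (-2.22 ± 0.31 over the fat pad).

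Against muscle 12 of the 18 matrix genes were called higher and 0 lower, beside 13.3% and 12.7% of all genes, with a median of 2.34. Chad, chondroadherin, had 5.71 ± 0.32 and Comp, the cartilage oligomeric matrix protein, 4.95 ± 0.36. Kera, keratocan, had 1.74 ± 0.65 and was not called (adjusted p = 0.0891, edgeR with Benjamini-Hochberg adjustment). Most of the calls over muscle were lost with either muscle library left out, as were most calls over all genes. In fat pad over muscle 4 were called higher and 11 lower, beside 29.8% and 29.6% of all genes, with a median of -1.60.

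Relatives and partners of the members went both ways. Of 22 genes 19 were tested, and 5 were called higher in tendon than in the fat pad and 3 lower, beside 31.4% and 27.2% of all genes. On the log2(TPM + 1) scale 9 of 16 were called higher and 1 lower by limma, beside 8056 and 1550 of 14929 genes. The median of the list was -0.02. It turned positive under total-count scaling (0.20), without tendon library 2 (0.01) and on the log2(TPM + 1) scale (0.85). Over all genes the median was 0.01, 0.23, -0.02 and 0.82 in that order. Cnmd, chondromodulin, the closest relative of Tnmd, ran the other way from it in both comparisons with the fat pad. Cnmd had 0.438 and 0.646 TMM CPM in tendon, 2.30 and 4.60 in the fat pad and 0.343 and 0.396 in muscle. Its log2 fold change was -2.67 ± 0.62 in tendon over fat pad and 3.22 ± 0.65 in fat pad over muscle. In tendon over muscle it was 0.55 ± 0.62 and not called. Of the helix-loop-helix genes, Twist1 was higher in tendon than in the fat pad (1.97 ± 0.37) and Tcf12, an E protein of the kind that pairs with Scx, was too (1.26 ± 0.16). Id2 and Id3, inhibitors of that pairing, were lower (-1.49 ± 0.21 and -0.72 ± 0.17), although Id3 stood at 0.20 on the log2(TPM + 1) scale.

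Against muscle 9 of the 19 were called higher in tendon and 0 lower, beside 13.3% and 12.7% of all genes, with a median of 1.17. Id2 (2.64 ± 0.22), Id3 (1.58 ± 0.17) and Id4 (2.81 ± 0.42) were among the higher genes, as were Twist1 (1.38 ± 0.37) and Twist2 (2.40 ± 0.36). Hand2 had 0 counts in both muscle libraries and was at least 42.5-fold higher in tendon. The fat pad was likewise at least 43.0-fold above muscle, and Hand2 did not differ in tendon over fat pad (-0.02 ± 0.47, not called). Of the Iroquois genes, the homeobox family nearest to Mkx, Irx3 was called higher in tendon than in the fat pad (1.68 ± 0.51), and Irx1, Irx2 and Irx5 were called in neither comparison with tendon. Leaving out either muscle library removed nearly all calls of the list over muscle, and most calls over all genes.

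Markers of the tendon sheath and of fibroblasts, 8 genes, gave a mixed picture. Of these 4 were called higher in tendon than in the fat pad and 3 lower (median 0.40, and -0.01 without tendon library 1), and 2 higher and 0 lower than in muscle (median 0.46), beside the shares over all genes given above. Over muscle 6 were higher under total-count scaling (median 1.20), beside 5969 of 15856 genes (median 0.83). On the log2(TPM + 1) scale 5 were higher (median 0.98), beside 4202 of 14929 genes (median 0.48). The calls of the list over muscle were lost with either muscle library left out, as were most calls over all genes. Tppp3, a marker of sheath progenitors, was lower in tendon than in the fat pad (-0.97 ± 0.25, but 0.01 on the log2(TPM + 1) scale) and higher than in muscle (1.15 ± 0.25). Of 3 genes of the myotendinous junction, all 3 were higher in tendon than in the fat pad and 1, the junction collagen Col22a1, was higher than in muscle (2.63 ± 0.67, adjusted p = 0.0318 by edgeR with Benjamini-Hochberg adjustment). That call was lost with tendon and muscle fitted alone (adjusted p = 0.0547) and without either fat pad library (0.0556 and 0.0572) or either muscle library (0.132 and 0.151), by the same edgeR test. Col22a1 had 125 and 569 TMM CPM in tendon, 84.4 and 63.2 in the fat pad and 68.4 and 44.0 in muscle, and tendon library 2 stood far above all others.

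**Figure D5:**
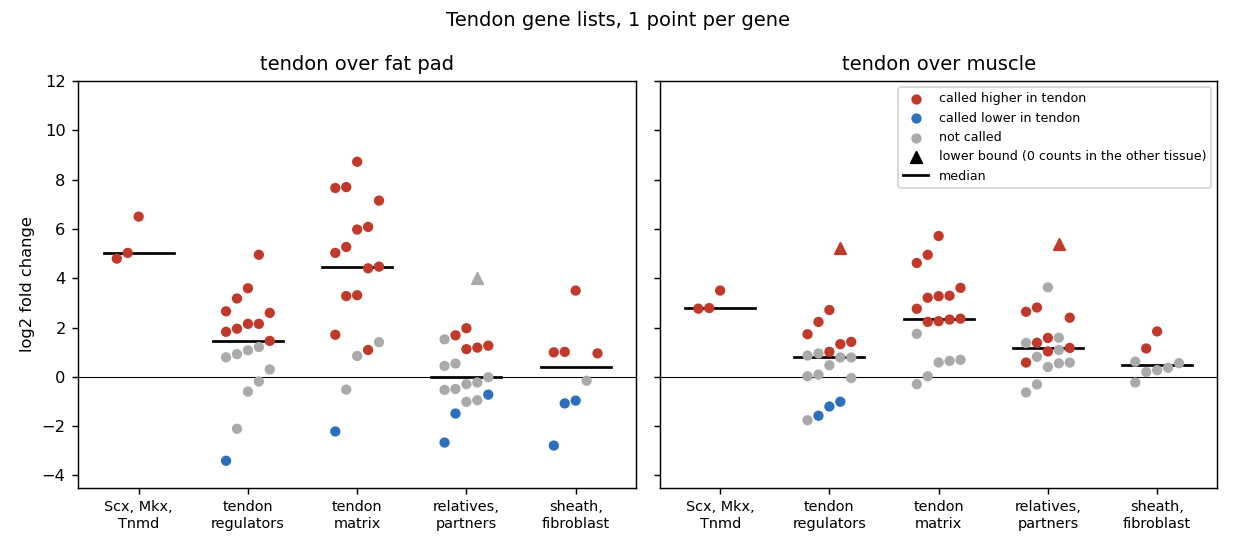
Log2 fold change of tendon over fat pad (left) and of tendon over muscle (right) for the 3 members and 4 gene lists, 1 point per gene, coloured by its edgeR call, with triangles for lower bounds of genes at 0 counts in the other tissue and lines for medians. The tendon matrix list has medians of 4.44 and 2.34, and the relatives and partners are centred near 0 over the fat pad and at 1.17 over muscle.

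The genes whose pattern was most like each member were found by Pearson's r of log2 TMM CPM over the 6 libraries, among 11814 genes with at least 5 CPM in the highest tissue. The 6 points share 3 tissues, so a high r mostly says that the tissues stood in the same order and spacing. For Scx the nearest were Ddah1 (r = 0.996), Map1a, Plcd3, Il17rd and Cacnb3 (0.994 each), with Mkx at rank 58 (0.977) and Tnmd at rank 75 (0.973). For Mkx they were Scarf2, Ssc5d and Igsf1 (0.999 each) and Klf5 and Camk2n1 (0.998 each), with Tnmd at rank 58 (0.987) and Scx at rank 136 (0.977). For Tnmd they were Atp6v0d1 (0.997), Klf5 (0.993), Ssc5d (0.992), C1qtnf6 (0.990) and Ltbp3 (0.989), with Mkx at rank 13 and Scx at rank 55 (0.973). Atp6v0d1 ran between 50.1 and 57.9 TMM CPM over all libraries, so the likeness does not speak of the size of a difference. Map1a, in contrast, had 123 and 225 TMM CPM in tendon, 2.94 and 5.12 in the fat pad and 20.6 and 22.2 in muscle.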

How the data were processed

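For each tissue the authors deposited raw read counts for each Ensembl gene as whole numbers, which served as the main values. The authors also deposited TPM for protein-coding genes, with their own log2 fold change of library 1 over library 2, p-value and −log10 p, per the file headers. Bowtie2, RSEM 1.3.1, DESeq2 1.4.5 and GRCm39 are listed in the submitters' processing notes. How reads were counted, the strand setting and the annotation: not given in the sources used here. Of the 16964 genes listed in all 3 count tables, 15856 passed filterByExpr. No column of sample values was left out.

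Comparisons between tissues used edgeR 4.0.16 (R 4.3.3) with TMM scaling, a term for each tissue, glmQLFit with glmQLFTest, and p-values adjusted by Benjamini-Hochberg with a threshold of 0.05. Each SE is the log2 fold change divided by √F. Intervals of counts are 95% exact conditional binomial intervals and cover counting error only. A floor of 3 counts per library stands in for 0 counts. TPM was tested with limma 3.58.1 on log2(TPM + 1) and log2(TPM + 0.1), which understates the change of low genes. DESeq2 1.42.0, other scalings, no filter, 2 tissues alone, the replicate block and leaving out each library were the alternatives. Coordinates of the printed promoter are GRCm38.p6, and GENCODE M21 served for lengths and overlaps only. Named genes are the members, the genes of 10 lists and the 5 genes most like each member by correlation. Not every list gene is reported here by name. The members and lists were chosen with earlier results of these data known. The scripts were tested on simulated data.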

Additional observations from a re-analysis of the deposited data

Results flagged for a closer look

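By counts, the log2 ratio of library 2 over library 1 was above 0 in tendon and below 0 in muscle for all 3 members. For Scx it was also above 0 in the fat pad, beyond counting error. The labels give no treatment within a tissue and do not pair library numbers between tissues. Renumbering the libraries of a tissue would turn its signs, so a difference in sign between tissues depends on that numbering. None of these differences was tested. The log2 ratio of library 2 over library 1 in tendon exceeded that in muscle by 1.53 for Scx, by 1.29 for Mkx and by 1.95 for Tnmd. For Scx the ratio in the fat pad exceeded that in muscle by 1.69. In the authors' TPM the ratio was below 0 for Scx and Tnmd in tendon (-0.06 and -0.17) as in muscle (-0.72 and -1.18). For these 2 genes the difference in direction between tendon and muscle therefore did not hold there. For Mkx the TPM ratios differed in sign, at 0.11 in tendon and -1.94 in muscle. The authors' deposited log2 fold change of library 1 over library 2 did not differ in sign for Mkx, at 0.13 in tendon and 1.71 in muscle. For Scx the difference in sign between fat pad (1.27) and muscle (-0.72) held in TPM.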

How the results depend on the processing

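Over 9 pairs of member and comparison and 14 alternatives, 126 of 126 values kept their direction and 119 kept the call. The 7 lost calls were all from leaving out 1 library, which leaves a tissue with a lone library assumed to vary like the rest. Values with 1 library left out ran, for tendon over fat pad, from 4.41 to 5.78 for Scx, 6.08 to 6.78 for Mkx and 4.48 to 5.01 for Tnmd. For tendon over muscle they ran from 2.14 to 3.19, 3.08 to 3.82 and 2.27 to 3.63, with the highest adjusted p by edgeR at 0.0912, 0.0579 and 0.0578. For fat pad over muscle they ran from -3.01 to -1.75, -3.24 to -2.72 and -2.53 to -1.18. On the log2(TPM + 1) scale Mkx stood at 4.28 in tendon over fat pad and -1.57 in fat pad over muscle, where the pseudocount weighs on its low levels. Genes called in tendon over muscle numbered 4127, 6367 under total-count scaling (5969 higher and 398 lower, against 2110 and 2017) and between 19 and 4380 with 1 library left out, the lowest without either muscle library (43 and 19), and 1816 without tendon library 1. On log2(TPM + 1) 4202 were higher and 504 lower in tendon over muscle, 8056 and 1550 in tendon over fat pad (against 4972 and 4308) and 2990 and 5809 in fat pad over muscle (against 4728 and 4698). Total-count scaling gave 6350 and 3420 for fat pad over muscle, and shifted the median gene by 0.21, 0.73 and 0.51 in tendon over fat pad, tendon over muscle and fat pad over muscle. DESeq2 size factors shifted it by -0.11 in tendon over fat pad.

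The libraries share only a number: deviations from the tissue means correlated at -0.03 for fat pad and muscle, 0.002 for fat pad and tendon and -0.17 for muscle and tendon. With the library number as a replicate block, Scx, Mkx and Tnmd stood at 5.04, 6.50 and 4.82 in tendon over fat pad, 2.61, 3.50 and 2.86 in tendon over muscle and -2.43, -3.00 and -1.95 in fat pad over muscle, no call of a member changed, Col22a1 lost its call over muscle (adjusted p = 0.0631 by edgeR), and the genes called numbered 8650, 2759 and 8649, against 9280, 4127 and 9426.

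Within tendon the ratio of library 2 over library 1 (log2) was 0.90, 0.59 and 0.43 for Scx, Mkx and Tnmd under total-count scaling. In TPM it turned to -0.0587 for Scx and -0.167 for Tnmd and stood at 0.11 for Mkx, and in muscle it was -0.72, -1.94 and -1.18. In TPM, Tnmd over Scx was 11.6 in tendon and 11.4 in muscle, Tnmd over Mkx 30.3 in tendon and 102 in the fat pad, and Scx over Mkx 4.35 in muscle. The cause of these moves was not tested. Depth limits Mkx in the fat pad most, with 43 and 41 counts.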
